A study of Oncorhynchus mykiss with 9 samples.

Results

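Of the 1413 small RNA entries measured in rainbow trout liver, 2 belong to miR-122. They are miR-122-x and miR-122-y, taken as every entry whose name starts with miR-122, and their sequences pair as the opposite strands of the miR-122 hairpin. Small RNA was sequenced from the liver of wild-type trout in 9 libraries: 3 from fish under acute hypoxia for 12 h, 3 from fish under moderate hypoxia for 12 h and 3 from control fish. All fish share the wild-type genotype, and their age, their sex and the oxygen levels were not given in the sources used here. Nothing in the labels ties a library to a fish, so the p-values below cover the spread between these libraries, which may be technical. Each library held 8443329 to 16515713 miRNA reads. Levels are in the deposited unit TPM, which for these values is a share of the library's miRNA reads scaled to a fixed total, with no length term.

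In vertebrates miR-122 is the miRNA that marks hepatocytes. Its gene is switched on by liver transcription factors such as HNF4A, and in mammals it represses genes outside the hepatocyte programme and affects cholesterol, fatty acid and iron metabolism. The hairpin is cut by Drosha and then by Dicer into a short duplex. An Argonaute protein usually keeps the guide strand of that duplex, and the passenger strand is mostly degraded, so reads of the passenger strand are scarce. The comparisons ask whether a lack of oxygen changed the level of either strand or the balance between them.

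The sequences of both strands are shown because they tell which strand is which and which other entries could share targets or reads with miR-122. They are printed from 5′ to 3′ as the deposited file gives them, with T in place of U, and the capitals mark the seed (bases 2 to 8), the stretch that pairs with target mRNAs.

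miR-122-x: tGGAGTGTgacaatggtgttt

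miR-122-y: aACGCCATtatcacactaaat

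miR-10014-x: tGGAGTGTgacaatggtaa

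miR-1352-z: tGGAGTGTgacaattgtga

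The x entry carries the sequence known as the guide strand of vertebrate miR-122, and the y entry faces it. Laid against each other as a duplex, the strands of 21 bases each face at 20 positions, with 16 Watson-Crick pairs, 1 G-U wobble pair, 3 mismatches and 1 base overhanging at each 3′ end. The seed of miR-122-x was shared by miR-10014-x, which is identical to it over the first 17 bases, and by miR-1352-z, which is identical over the first 14. No other entry carried the seed of miR-122-y.

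Some libraries stood apart and touch the results below. Entries with names known from an imprinted cluster in placental mammals, 38 in number, summed to between 4.04 and 5.63 TPM in the acute hypoxia libraries and between 3.29 and 4.77 TPM in the controls. In the moderate hypoxia group their lowest, median and highest sums were 4.20, 252 and 308 TPM, with libraries 1 and 2 the high ones. Moderate hypoxia library 3 lay between libraries 1 and 2 for both arms of miR-122, and for 87.8% of 98 abundant entries (mean 100 TPM or more). The next highest such share of any library was 67.3%. Whether that library is independent of the other 2 was not tested. Control library 1 had the lowest level of both arms of all 9 libraries, and values without it are given with the comparisons below.

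miR-122-x was the most abundant entry in every library. It read 436063, 405699 and 460731 TPM in the acute hypoxia libraries, 525228, 504743 and 518378 TPM in the moderate hypoxia libraries, and 307409, 459053 and 500523 TPM in the controls. The 3 moderate hypoxia libraries lay above all others, the acute hypoxia libraries lay within the range of the controls, and control 1 lay below every other library. As a share of the library's miRNA reads, this single sequence took 40.6 to 46.1% under acute hypoxia, 50.5 to 52.5% under moderate hypoxia and 30.7 to 50.1% in control. The exact 95% counting interval of the lowest share was 30.71 to 30.77%, narrow beside the spread between libraries. Such intervals cover counting error only, since no molecular identifiers are described for these reads. The next entry in line was 3.52 to 5.00 times less abundant under acute hypoxia, 6.90 to 8.05 times under moderate hypoxia and 2.55 to 7.62 times in control. The 5 next most abundant entries by their mean over all libraries were miR-199-x (82741 TPM), miR-100-x (49443 TPM), miR-30-x (48680 TPM), miR-22-y (47890 TPM) and let-7-x (42730.5 TPM).

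Neither arm passed the test in any comparison, in a limma model of log2(TPM + 1) fitted to the 481 entries that averaged 1 TPM or more, with Benjamini-Hochberg adjustment. In the same model 0% of the tested entries passed between acute hypoxia and control, 25.6% between moderate hypoxia and control, and 30.6% between acute and moderate hypoxia. Of acute hypoxia against control, 47 entries had an unadjusted p under 0.05, and voom weights on the recovered reads gave 0 calls with 40 such entries.

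The mean level of miR-122-x was highest under moderate hypoxia, and its order was moderate hypoxia, acute hypoxia, control. It averaged 434164 ± 27565 TPM under acute hypoxia and 422328 ± 101660 TPM in control (SD, n = 3 each), a log2 difference of 0.069 (SE 0.197, limma adjusted p = 0.931). These neighbours in the order differed by less than their spread. Under moderate hypoxia it averaged 516116 ± 10428 TPM against 422328 ± 101660 TPM in control, a log2 difference of 0.32 (SE 0.197, limma adjusted p = 0.255), or 1.25-fold with a 95% interval of 0.924 to 1.69. Between acute and moderate hypoxia the log2 difference was -0.25 (SE 0.197, limma adjusted p = 0.345), or 0.840-fold with an interval of 0.622 to 1.14. With only these groups fitted its SE was 0.102 (limma adjusted p = 0.0840), and without control 1 it was 0.109 (limma adjusted p = 0.0961).

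Groups did not overlap for miR-122-x in the comparison of moderate hypoxia with control or of acute with moderate hypoxia. Among all tested entries the groups did not overlap for 11.2% between acute hypoxia and control. They did not overlap for 43.2% (12.5% with moderate hypoxia higher) between moderate hypoxia and control, and for 52.8% (12.3% with acute hypoxia lower) between acute and moderate hypoxia. In each of these 2 comparisons of miR-122-x, the exact two-sided permutation test gave p = 0.1, the smallest that 3 against 3 libraries allow. Without control 1 the log2 difference of moderate hypoxia from control was 0.11 (limma adjusted p = 0.594), and that of acute hypoxia from control turned to -0.14 (limma adjusted p = 0.786). Without libraries 1 and 2 of moderate hypoxia the difference of moderate hypoxia from control was 0.33 (limma adjusted p = 0.760). In bulk liver, a different share of hepatocytes and a different level of miR-122 per hepatocyte cannot be told apart.

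**Figure D1:**
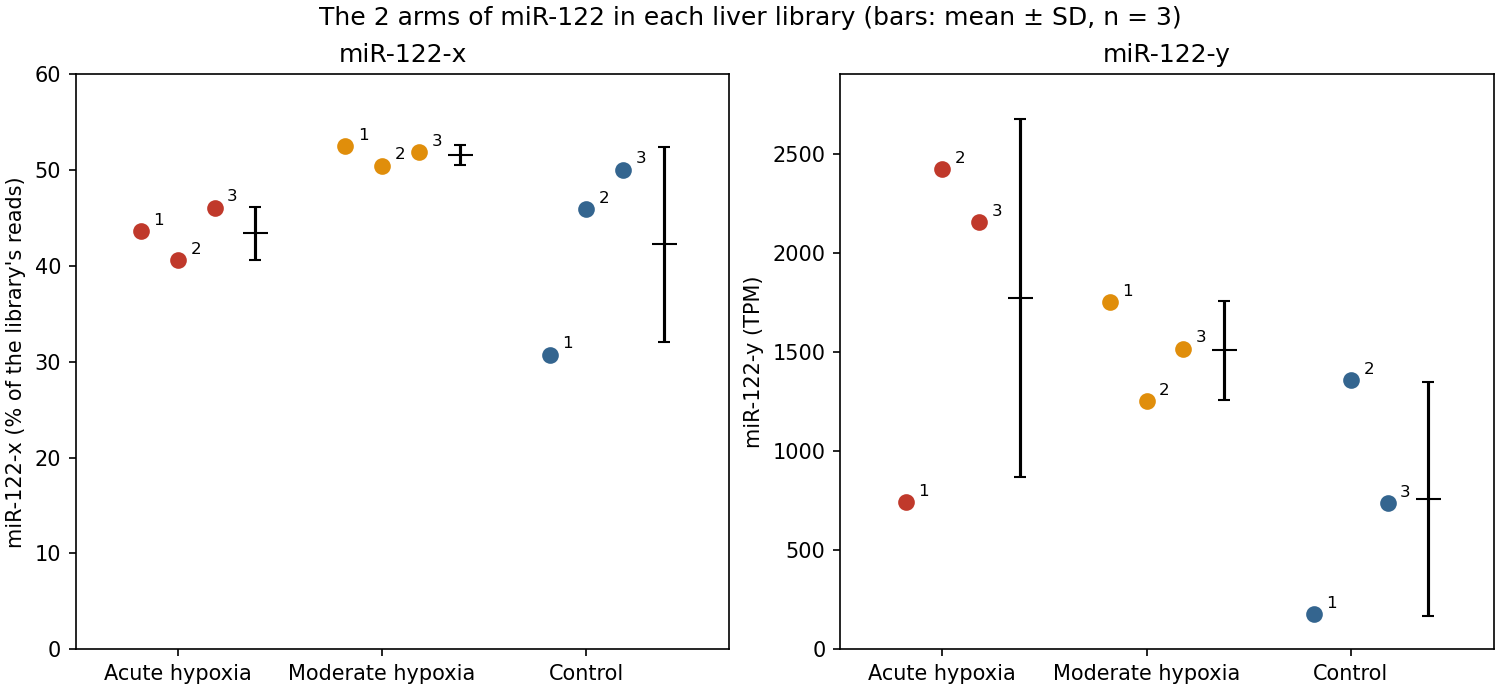
Level of each miR-122 arm in each library, by group, with the library number beside each point and the mean ± SD (n = 3) at its right. The left axis gives the percent of the library's reads in miR-122-x, which spans 30.7 to 52.5% with the moderate hypoxia libraries highest, and the right axis gives miR-122-y in TPM, which spans 175 to 2422 with control 1 lowest.

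The y strand was far scarcer, and its highest library exceeded its lowest 13.8-fold, where the x strand spanned 1.71-fold. Relative to all entries other than miR-122, these spans were 16.2-fold for y and 2.49-fold for x. miR-122-y read 741, 2422 and 2155 TPM in the acute hypoxia libraries, 1751, 1253 and 1516 TPM in the moderate hypoxia libraries, and 175, 1357 and 737 TPM in the controls. Acute hypoxia libraries 2 and 3 held the highest levels, acute hypoxia library 1 lay beside control 3, and control 1 lay well below every other library. By abundance it ranked 26 to 44 under acute hypoxia, 29 to 33 under moderate hypoxia and 35 to 89 in control. Between 1812 and 25045 reads stood behind each value, the fewest of them in control 1.

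Mean miR-122-y was higher in both hypoxia groups than in control, but the groups overlapped. It averaged 1773 ± 904 TPM under acute hypoxia and 756 ± 591 TPM in control (SD, n = 3 each), a log2 difference of 1.49 (SE 0.648, limma adjusted p = 0.469). That is 2.80-fold with a 95% interval of 1.04 to 7.52, and it was the third largest of the 481 differences in that comparison. By p it ranked only 43 of 481 (limma unadjusted p = 0.0426), where 47 entries were under 0.05. Of the acute hypoxia libraries 2 of 3 lay above every control, and the exact two-sided permutation p was 0.2. Under moderate hypoxia it averaged 1507 ± 249 TPM against 756 ± 591 TPM in control, a log2 difference of 1.41 (SE 0.648, limma adjusted p = 0.124), or 2.66-fold with an interval of 0.991 to 7.16. Here too 2 of 3 libraries lay above every control, with an exact permutation p of 0.2.

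The size of both differences depended on the controls, which the comparisons share, and that of acute hypoxia on its own libraries too. Without control 1 the differences were 0.65 (limma adjusted p = 0.715) for acute hypoxia and 0.58 (limma adjusted p = 0.441) for moderate hypoxia. Without control 2 they were 2.12 (limma adjusted p = 0.228) and 2.05, and the moderate hypoxia difference then passed (limma adjusted p = 0.0450). Leaving out acute hypoxia 1, 2 or 3 gave acute hypoxia differences of 2.03, 1.17 or 1.26 (limma adjusted p = 0.176, 0.943 and 0.827). Without moderate hypoxia 1 and 2 the moderate hypoxia difference was 1.44 (limma adjusted p = 0.391). Between acute and moderate hypoxia miR-122-y differed by 0.072 on the log2 scale (SE 0.648, limma adjusted p = 0.941), with a 95% interval of 0.391- to 2.82-fold. The sign of that small difference changed without moderate hypoxia 2, acute hypoxia 2 or acute hypoxia 3, and without acute hypoxia 1 it read 0.61 (limma adjusted p = 0.512).

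Among the same 98 abundant entries, miR-122-y was the most variable within the control group, with an SD of 1.51 on the log2 scale where the median entry had 0.36. Without control 1 its SD was 0.62, the ninth largest. Within acute hypoxia it was the second most variable (SD 0.94, median entry 0.27), but without acute hypoxia 1 its SD was 0.12 and its rank 62. Within moderate hypoxia it ranked 16 of 98 (SD 0.24, median entry 0.12). The x strand had an SD of 0.092 under acute hypoxia, 0.029 under moderate hypoxia and 0.38 in control, ranks of 95, 85 and 48 among the same 98 entries. Because miR-122-x fills a large part of a fixed total, its share varies less than its level relative to other entries. In TPM its SD was 6.35, 2.02 and 24.1% of its mean in these groups. Relative to all entries other than miR-122 it was 11.1, 4.11 and 37.7%, so these ranks do not show an unusually stable entry. Without control 1 the SD of miR-122-x in control was 0.088, rank 82, and without acute hypoxia 1 its SD under acute hypoxia was 0.13, rank 56. The model shares its estimate of spread between groups, so the wide control group also widens the interval of the comparison that does not use it.

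The ratio of the arms says how far one strand prevails in a library and does not depend on how the library is scaled. Reads of miR-122-x outnumbered those of miR-122-y by 589, 167 and 213.8 to 1 in the acute hypoxia libraries, by 300, 403 and 342 to 1 under moderate hypoxia, and by 1755, 338 and 679 to 1 in control. The extremes are control 1 at the top and acute hypoxia 2 at the bottom, and every group overlaps every other. Groups did not overlap in arm ratio for 2.99% of the names tested below between acute hypoxia and control, 41.8% between moderate hypoxia and control and 52.2% between acute and moderate hypoxia. Put as a share, miR-122-y made up 0.410 ± 0.217% of miR-122 reads under acute hypoxia, 0.291 ± 0.0424% under moderate hypoxia and 0.166 ± 0.120% in control (SD, n = 3 each). The lowest share was 0.0569% in control 1 (exact 95% counting interval 0.0543 to 0.0596%) and the highest 0.594% in acute hypoxia 2 (0.585 to 0.602%).

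Changes of the arm ratio were tested in a limma model of the log2 ratio over the 67 miRNA names whose x and y entries both averaged 1 TPM or more. For miR-122 the ratio was lower under acute hypoxia than in control by a log2 difference of -1.42 (SE 0.547, limma adjusted p = 0.606). Its unadjusted p of 0.0225 was the smallest of the 67 in that comparison, in which 0% passed, 3 had an unadjusted p under 0.05, and 2 of 3 acute hypoxia libraries lay below every control (exact permutation p = 0.2). Under moderate hypoxia the difference from control was -1.09 (SE 0.547, limma adjusted p = 0.161, exact permutation p = 0.3). In that comparison 23.9% of the names passed, among them the hypoxia miRNA of mammals miR-210 with 2.24 (SE 0.341, limma adjusted p = 0.000714) and the fish miRNA miR-459 with -2.13 (SE 0.347, limma adjusted p = 0.000808). By size these were followed by miR-10 with 1.72, miR-731 with 1.49 and miR-30 with -1.46 (limma adjusted p = 0.000714, 0.0202 and 0.00239). Of these 5 names, 4 also passed without each library in turn. miR-731 was lost without each of the moderate hypoxia libraries and ranged from 0.85 to 1.83. For miR-10 the y entry averaged 1.59 TPM, near the filter of 1 TPM and the 1 TPM added before the log, where miR-10-x averaged 1401 TPM. Whether the miR-10 ratio follows its x entry alone was not tested.

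Between acute and moderate hypoxia the arm ratio of miR-122 differed by -0.32 (SE 0.547, limma adjusted p = 0.641), with a 95% interval of 0.352- to 1.81-fold. Of the names 20.9% passed. By size the first were miR-459 with 2.77, miR-210 with -2.41, miR-30 with 2.05 and miR-10 with -1.89 (limma adjusted p = 0.000149 each). miR-144 followed with -1.69 (limma adjusted p = 0.00680). The low level of miR-10-y limits the miR-10 ratio here too. Without control 1 the differences from control were -0.79 (limma adjusted p = 0.432) for acute and -0.47 (limma adjusted p = 0.527) for moderate hypoxia. Without control 2 they were -1.98 (limma adjusted p = 0.0897) and -1.66, and the moderate hypoxia difference passed (limma adjusted p = 0.0288). Leaving out acute hypoxia 1, 2 or 3 gave acute hypoxia differences from control of -1.96, -1.06 or -1.23 (limma adjusted p = 0.170, 0.940 and 0.824). Without moderate hypoxia 1 and 2 the moderate hypoxia difference was -1.11 (limma adjusted p = 0.574). Without acute hypoxia 1 the difference between acute and moderate hypoxia was -0.87 (limma adjusted p = 0.270), and without acute hypoxia 2 its sign turned, to 0.037 (limma adjusted p = 0.970).

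**Figure D2:**
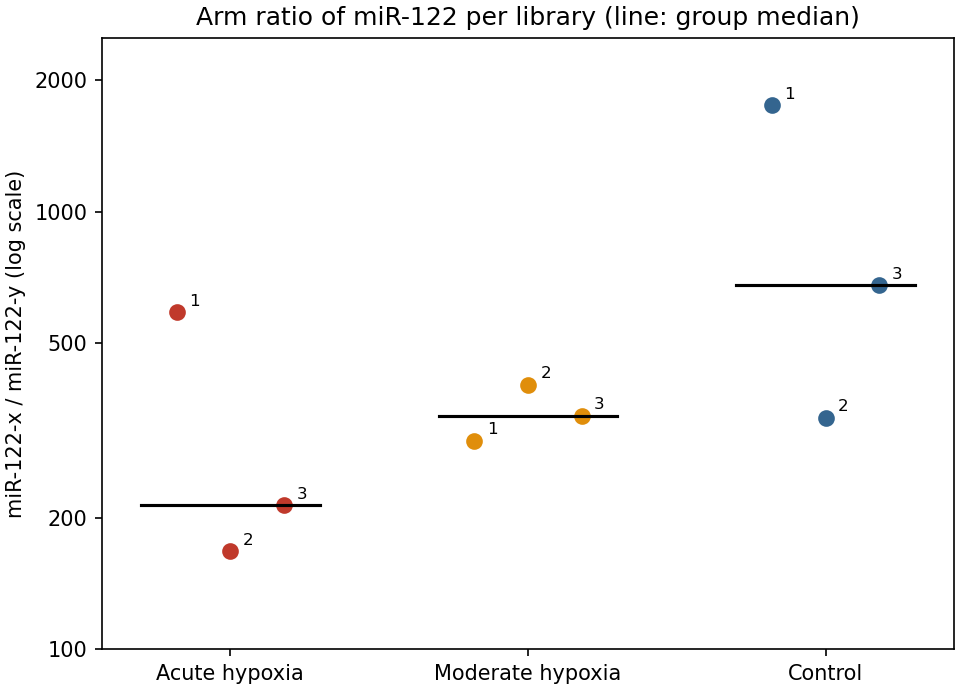
Ratio of miR-122-x to miR-122-y in each library on a log axis, by group, with the library number beside each point and a line at the group median. The medians are 213.8 under acute hypoxia, 342 under moderate hypoxia and 679 in control, and the points of the groups overlap.

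**Figure D3:**
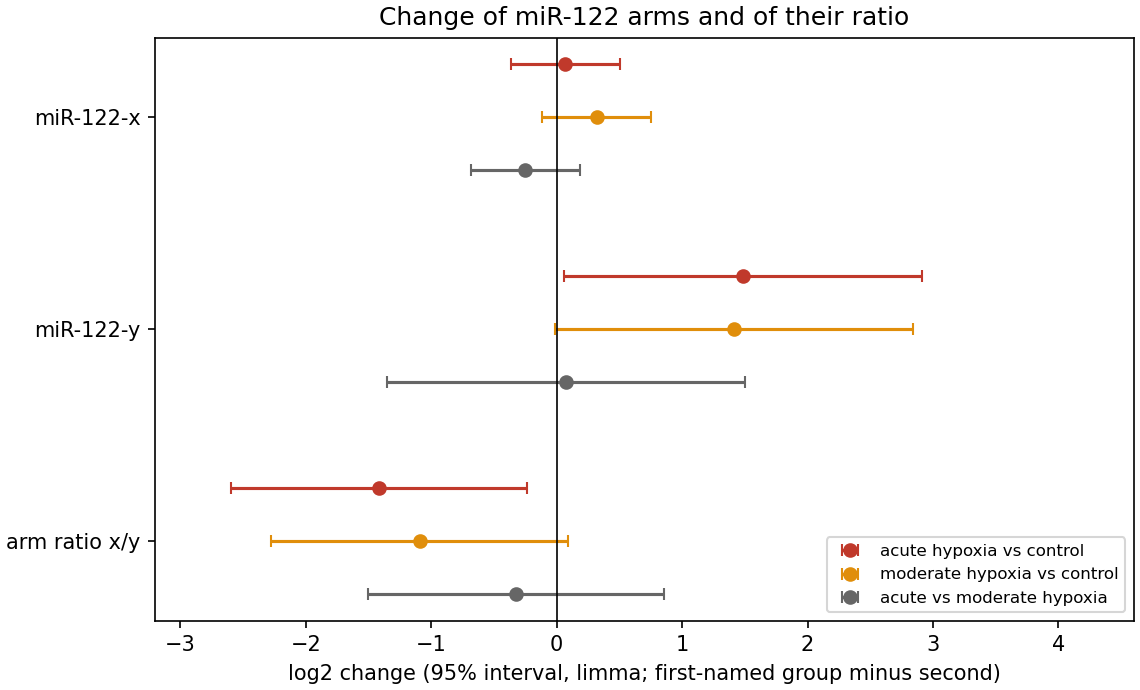
Log2 difference of miR-122-x, of miR-122-y and of their ratio in the 3 comparisons, first-named group minus second, with 95% intervals from limma that are not adjusted for multiple testing. Intervals of miR-122-x are the narrowest and include 0, and those of miR-122-y and of the ratio exclude 0 for acute hypoxia against control, where the adjusted p-values are 0.469 and 0.606.

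Bias towards a single strand was strong in many miRNAs of this liver. Averaged over the 9 libraries on the log2 scale, miR-122-x exceeded miR-122-y 413-fold, the eighth largest imbalance of the 67 names, where the median name had 14.7-fold. The x entry was the higher of its pair for 39 names and the y entry for 28. The strongest imbalance was 1234-fold, in miR-100, a miRNA encoded near let-7 genes. The ranking used x and y entries only. miR-100 also has a z entry, with a mean of 14342 TPM, whose arm was not determined. The scarce strand of miR-122 still averaged 1345 TPM, above the 35.6 TPM of miR-100-y and the 36.7 TPM of miR-26-y. It was below the scarcer strands miR-199-y, at 8699 TPM, and miR-30-y, at 2428 TPM.

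**Figure D4:**
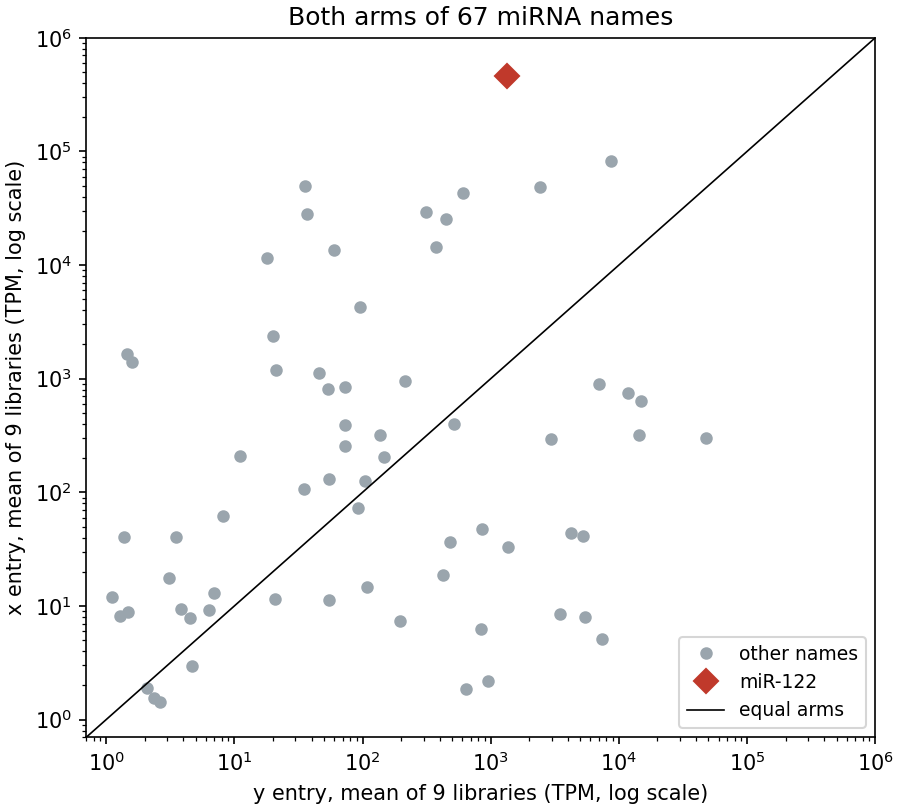
Mean level over the 9 libraries of the x entry against the y entry for 67 miRNA names, in TPM on log axes, with a line where both are equal. miR-122, at 457536 TPM for x and 1345 TPM for y, is the highest point and lies 413-fold above the line on the mean log2 scale.

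Reads under the 2 other names with the miR-122 seed added little. miR-10014-x, shorter than miR-122-x and different from it only in its last bases, read 561, 325 and 503 TPM under acute hypoxia, 674, 326 and 542 TPM under moderate hypoxia, and 493.9, 363 and 599 TPM in control. Its groups overlapped, and its log2 difference from control was -0.076 (SE 0.316, limma adjusted p = 0.949) under acute and 0.050 (SE 0.316, limma adjusted p = 0.925) under moderate hypoxia. For every 1000 reads of miR-122-x there were 1.06 ± 0.245 of miR-10014-x under acute hypoxia, 0.992 ± 0.322 under moderate hypoxia and 1.20 ± 0.408 in control (SD, n = 3 each). Since it begins with the same 17 bases, whether its reads come from the miR-122 hairpin cannot be told from these values. miR-1352-z stayed at 0.474 to 1.53 TPM and was not tested. All 3 entries together carried the seed in 40.6 to 46.1% of reads under acute hypoxia, 50.5 to 52.6% under moderate hypoxia and 30.8 to 50.1% in control.

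Levels are shares of a fixed total, so every difference also depends on the scale chosen. What moved the medians below was not tested. In deposited units the median log2 difference of all tested entries was 0.084 for acute hypoxia against control, -0.22 for moderate hypoxia against control and 0.32 for acute against moderate hypoxia. Relative to those medians miR-122-x stood at -0.016, 0.54 and -0.57, and miR-122-y at 1.40, 1.63 and -0.24. With libraries scaled by the median of ratios, miR-122-x was lower under acute than under moderate hypoxia by a log2 difference of -0.66, which passed (limma adjusted p = 0.0467). With a trimmed mean of M values that difference was -0.65 (limma adjusted p = 0.0616). Scaled to the reads of all entries other than miR-122, it was -0.47 (limma adjusted p = 0.212), and that of moderate hypoxia from control was 0.56 (limma adjusted p = 0.162). On that scale the median of all tested entries was 0.11 for acute hypoxia against control, -0.054 for moderate hypoxia against control and 0.17 for acute against moderate hypoxia. Both of the first 2 scalings turned the small difference of miR-122-x between acute hypoxia and control to -0.036, and those and the third turned that of miR-122-y between acute and moderate hypoxia to -0.33, -0.34 and -0.15.

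The authors' deposited table gives fold changes of group means. For miR-122-x it has log2 values of 0.040 for acute hypoxia against control (false discovery rate 1), 0.29 for moderate hypoxia against control (0.257) and -0.25 for acute against moderate hypoxia (0.232). For miR-122-y the authors' deposited table has 1.23 (0.838), 0.99 (0.105) and 0.23 (0.979) in the same order, so neither arm passed 0.05 there. Of all 1139 entries there, 0% passed for acute hypoxia against control. Of 1413 entries, 10.7% passed for moderate hypoxia against control and 11.7% for acute against moderate hypoxia. The authors' separately made part for acute hypoxia and control lists the same sequences for both arms. Levels there differed from those used here by 0.000576 to 0.0166% for miR-122-x and by -0.354 to -0.161% for miR-122-y.

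The list named liver-enriched here holds, beside miR-122, the families of miR-192, miR-194, miR-215, miR-148, miR-152, miR-101, miR-22, miR-33, miR-455 and miR-885. Its members were chosen by name. Whether each is enriched in liver over other tissues was not tested, as all libraries are from liver. Together with miR-122 the list had 26 entries, all with reads in every library, and 25 were tested. Of these 25, which include both miR-122 arms, 0 passed in limma for acute hypoxia against control. The 1 entry with an unadjusted p under 0.05 was miR-122-y itself (limma unadjusted p = 0.0426). Under moderate hypoxia 4 were higher and 3 lower than in control, where 7.9% of all tested entries were higher and 17.7% lower. That split depended on the scaling: 7 were higher and 1 lower with a trimmed mean of M values or the median of ratios. Quantile normalization gave 6 higher and 1 lower, and scaling to the entries other than miR-122 gave 6 and 2. The median of all tested entries moved too, to -0.0017, 0.0065, -0.034 and -0.054 under these scalings in the order named. Shares of all tested entries called under these scalings, or in the fits below that left out libraries, are not given. The counts of those fits therefore cannot be read as particular to this list. Between acute and moderate hypoxia 2 were higher and 3 lower, where 22.9% of all tested entries were higher and 7.69% lower. Those became 2 higher and 6 lower with a trimmed mean of M values, and 2 and 7 with the median of ratios. In deposited units all calls lay in the families of miR-192, miR-194, miR-215, miR-22, miR-33 and miR-455. With the median of ratios, the lower entries between acute and moderate hypoxia included miR-122-x itself (limma adjusted p = 0.0467). The median log2 difference of the list was 0.28, 0.074 and 0.072 in these comparisons, where all tested entries had the medians given above in deposited units. The list median of 0.072 is the difference of miR-122-y itself. Under moderate hypoxia against control, the 4 most abundant of the called entries were as follows. miR-215-x rose by a log2 difference of 1.13 (limma adjusted p = 0.00249), miR-22-y by 0.88 (limma adjusted p = 0.0167) and miR-192-x by 0.61 (limma adjusted p = 0.0445), while miR-194-x fell with -1.28 (limma adjusted p = 0.00173). The other 3 calls were miR-215-z with 2.13 (limma adjusted p = 0.000321, passing in 9 of 9 fits that left out a library), miR-33-y with -1.92 (limma adjusted p = 0.0463) and miR-455-y with -0.69 (limma adjusted p = 0.0433). Of 4 other scalings, miR-33-y passed under 1 and miR-455-y under 0. Of the 9 fits that each left out a library, miR-192-x passed in 2, miR-22-y in 8 (all but the fit without moderate hypoxia 1, limma adjusted p = 0.0615), and miR-194-x and miR-215-x in 9. Under acute against moderate hypoxia miR-194-x was higher by 1.64 (limma adjusted p = 0.000221). There miR-215-z was lower, with -1.74 (limma adjusted p = 0.000619), as were miR-215-x with -0.85 (limma adjusted p = 0.00721) and miR-192-x with -0.66 (limma adjusted p = 0.0303, held in 4 of 9 such fits). The 7 calls of this list became 3 without moderate hypoxia 1, 4 without moderate hypoxia 2, moderate hypoxia 3 or acute hypoxia 3, and 1 without moderate hypoxia 1 and 2 together. The 5 calls between acute and moderate hypoxia became 3 without acute hypoxia 2 and 2 without moderate hypoxia 1 and 2.

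Summed levels of marker miRNAs of the liver's cell types also differed in range between the groups. The other miRNAs listed for hepatocytes, miR-192 and miR-194, summed to 26170.5 to 31922 TPM under acute hypoxia, 37885 to 41763 TPM under moderate hypoxia and 23924 to 34714 TPM in control. That sum was mostly miR-192-x, and miR-194-x went the other way, at 1081 ± 19.3 TPM under moderate hypoxia against 2647 ± 338 TPM in control (SD, n = 3 each). Of the 7 hepatocyte entries, miR-122 included, 1 was higher and 1 lower under moderate hypoxia than in control. Red blood cell miRNAs (miR-451, miR-144 and miR-486) summed to 2156 to 3122 TPM under acute hypoxia, 679 to 872 TPM under moderate hypoxia and 2017 to 3512 TPM in control. The endothelial miR-126 summed to 13401 to 19700 TPM under acute hypoxia, 6719 to 7379 TPM under moderate hypoxia and 11982 to 16161 TPM in control. Leukocyte miRNAs summed to 13291 to 18441 TPM under acute hypoxia, 10702 to 10965 TPM under moderate hypoxia and 14977 to 21396 TPM in control. The leukocyte sum may be mostly miR-146-x, which averaged 13603.6 TPM over the 9 libraries where miR-142-x averaged 810.5 TPM. The share of each entry in each group was not examined, so the lower sum under moderate hypoxia may be that of a single entry. The mean of miR-150-x, a lymphocyte miRNA in mammals, went the other way. Its log2 difference of moderate hypoxia from control was 1.15, which did not pass (limma adjusted p = 0.111). Under moderate hypoxia against control 4 of 6 tested red blood cell entries fell and 1 rose, 1 of 2 endothelial entries fell, and 2 of 8 tested leukocyte entries fell. Of 10 tested stromal entries 1 rose and 2 fell. Among all tested entries 7.9% were higher and 17.7% lower in that comparison. No member of these 4 lists lacked reads in a whole group. Stromal and smooth muscle miRNAs overlapped between moderate hypoxia (84960 to 93953 TPM) and control (86028 to 122272 TPM), and lay at 110191 to 143891 TPM under acute hypoxia. Their part in the levels of miR-122 was not tested. Epithelial sums overlapped between all groups, and striated muscle, nervous tissue and pancreas summed to no more than 27.1, 129.9 and 189.6 TPM in any library. Nervous tissue names summed to 128 and 129.9 TPM in moderate hypoxia 1 and 2, the libraries that also stood apart in the imprinted cluster names. In the other 7 libraries they summed to between 8.31 and 18.9 TPM. In these tissue lists, 1 nervous entry had no reads in any acute hypoxia library. So it was for 1 epithelial entry under moderate hypoxia and 1 in control, and 1 pancreatic entry under acute and 1 under moderate hypoxia. Of the 38 imprinted cluster names, 17 had no reads in any acute hypoxia library, 19 in any control and 0 in the whole moderate hypoxia group.

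Patterns like those of the arms were ranked by Pearson's r of log2(TPM + 1) over the 9 libraries among the other 97 abundant entries. These libraries share their scaling and the low control 1, so the values are descriptions. Most like miR-122-x were miR-150-x (r = 0.95), a lymphocyte miRNA in mammals, miR-16-x (0.94), miR-128-y (0.88), miR-222-y (0.78) and miR-22-y (0.70). Without control 1 these read 0.83, 0.87, 0.59, 0.90 and 0.41. Most like miR-122-y were miR-101-x (0.92), miR-22-y (0.81), miR-143-x (0.81), miR-150-x (0.77) and let-7-y (0.70), which without control 1 read 0.88, 0.67, 0.73, -0.31 and 0.43. Over the 9 libraries Pearson's r between them was 0.69 (exact permutation p = 0.0747) and Spearman's rho 0.23 (exact permutation p = 0.552), the only such relation tested. Without control 1 alone, r between the arms was -0.19, so the positive r rests on control 1. Without control 1 and moderate hypoxia 1, the libraries farthest from the median of miR-122-x, r was -0.34.

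The entry most opposite to miR-122-y, named after its values were seen, was miR-100-z. It read 16910, 5865 and 8211 TPM under acute hypoxia, 8760, 12694 and 10541 TPM under moderate hypoxia, and 40459.5, 9319 and 16321 TPM in control. The order of libraries is nearly reversed from that of miR-122-y: control 1 is highest for miR-100-z and lowest for miR-122-y, and acute hypoxia 2 is the other way round. Pearson's r was -0.98 and Spearman's rho -0.97 over 9 libraries, and r was -0.96 without control 1. For miR-122-x the most opposite entry was miR-23-y (r = -0.95, and -0.83 without control 1). In control 1, where miR-122-x was low, miR-100-x stood at 120350 TPM against 36452 and 55287 TPM in the other controls, which was its highest level in any library.

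**Figure D5:**
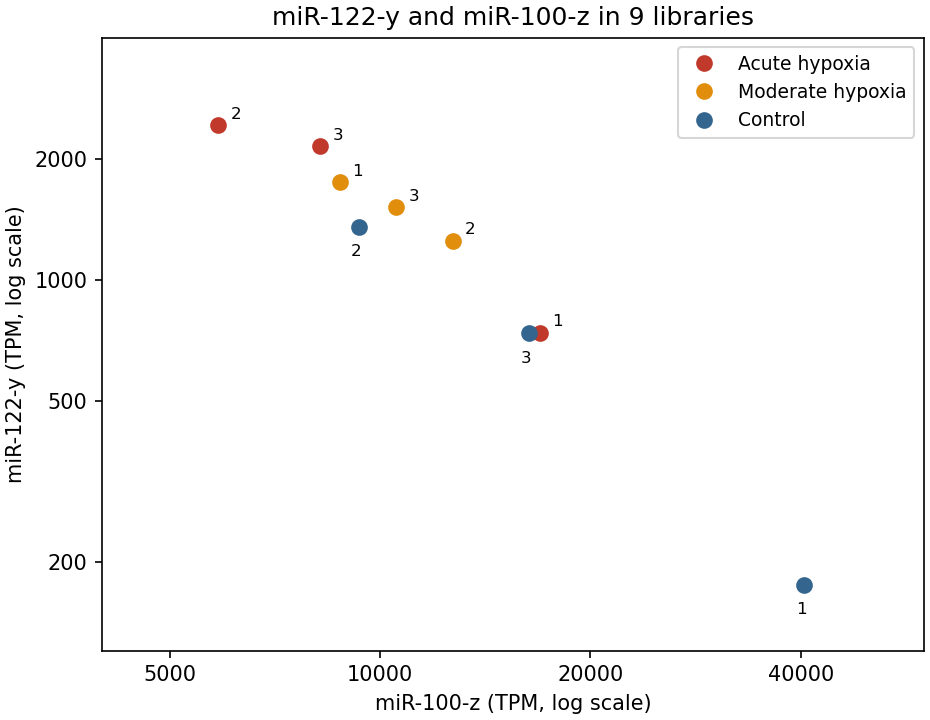
Level of miR-122-y against miR-100-z in each of the 9 libraries, in TPM on log axes, with the library number beside each point. Points run from acute hypoxia 2, at 5865 TPM of miR-100-z and 2422 TPM of miR-122-y, down to control 1 at 40459.5 and 175 TPM.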

How the data were processed

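The deposited file stacks 3 tables, 1 per pair of groups. Its abundance values, a signal that the authors name TPM per the file headers, are shares of the library's reads scaled to a fixed total, and entries without reads are written 0.01. The deposited log2 fold changes, p-values with their false discovery rates are the authors' own, by an unnamed test. Aligner, genome build and miRNA prediction tool were not given in the sources used here. Of the 3 tables, the pair that shares its entries and its moderate hypoxia values was joined by entry name over 9 libraries.

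All values below 10000 reads were within 0.05 reads of whole multiples of 1 step per library, which gave 8443329 to 16515713 reads. A floor of 3 reads is 0.182 to 0.355 TPM. Values were analysed as log2(TPM + 1) with limma-trend (limma 3.58.1, R 4.3.3), 3 group means, 9 libraries, and an adjusted p threshold of 0.05. The model was also run on simulated data with 1 setting of spread for all entries and groups. In the real data the median SD of abundant entries on the log2 scale was 0.27 in acute hypoxia, 0.12 in moderate hypoxia and 0.36 in control. That run therefore cannot tell how the test behaves under such unequal spread. Exact tests used scipy 1.17.1 (Python 3.11.15).

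Members, lists and tests were chosen with earlier results of these data known. The entries named are both arms, entries sharing a seed, the most abundant others, per arm the 5 most alike by Pearson's r at a mean of at least 100 TPM, up to 4 liver-enriched calls per comparison by mean TPM and up to 5 arm ratio calls. Alternatives were other pseudocounts, filters, scalings, left-out libraries, 2-group fits, a replicate block and, added after seeing the data, voom weights, another filter on arm pairs, and other pseudocounts, filters and the block for the liver-enriched counts. The moderate hypoxia calls of that list past the first 4 are named outside the rule.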

Additional observations from a re-analysis of the deposited data

How the results depend on the processing

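Over 180 alternative values for the arms and their ratio, 164 kept the direction and side of the threshold, 3 were 0 by construction, 10 changed sign and 3 passed where the reported value did not. Many of the 164 could not change direction. Another filter, a fit of only the compared groups, the replicate block or leaving out a library of the group not compared returns the same difference. In those fits only the SE and the adjusted p could move. Leaving out 1 library at a time gave log2 differences of -0.14 to 0.21 (acute hypoxia against control), 0.11 to 0.46 (moderate hypoxia against control) and -0.30 to -0.20 (acute against moderate hypoxia) for miR-122-x. For miR-122-y they were 0.65 to 2.12, 0.58 to 2.05 and -0.24 to 0.61, and for the arm ratio -1.98 to -0.79, -1.66 to -0.47 and -0.87 to 0.037. With trimmed mean of M values and median of ratios scaling, miR-122-x read -0.036 and -0.036 for acute hypoxia against control, and miR-122-y -0.33 and -0.34 for acute against moderate hypoxia, or -0.15 scaled to the other entries. Median of ratios scaling gave miR-122-x -0.66 for acute against moderate hypoxia, which passed. The cause was not tested. Quantile normalization sets the top entry of every library equal, so miR-122-x read 0 there. Liver-enriched calls of moderate hypoxia against control were 3 to 8 without 1 library, 4 with only those groups fitted, 3 with no filter, 4 with voom and 1 without moderate hypoxia libraries 1 and 2. Those of acute against moderate hypoxia were 3 to 6, then 8 and 9 under the first 2 scalings, 3 with no filter and 2 without both of these libraries. With voom, 88 of all tested entries passed for moderate hypoxia against control. Shares of all tested entries in the other fits are not given, so the liver-enriched counts of those fits have no background beside them. Same-numbered libraries deviated with correlations of -0.21 to 0.26 over all tested entries. Such a check cannot tell whether they are paired or share a batch. A replicate block left miR-122-x at 0.32 (limma adjusted p = 0.258) and miR-122-y at 1.41 (limma adjusted p = 0.0709) for moderate hypoxia against control and changed no call of either arm or of the ratio. The SE of miR-122-y was 0.508 with the block and 0.648 without it, and that of the arm ratio was 0.451 and 0.547. The planned edgeR and DESeq2 fits were not run, since the deposited values are TPM with a fill value of 0.01 and not counts. In their place voom was run on reads recovered from the TPM steps, with the fill value taken as 0. With 3 libraries a group, the spread between libraries limits the precision, and depth does not.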
